A study of Mus musculus with 2 samples.

Results

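Members of the G protein-coupled receptor family in the pancreatic islet, 10 genes in all, were followed by symbol: Glp1r, Gipr, Gcgr, Ffar1, Gpr119, P2ry1, Chrm3, Adra2a, Galr1 and Sstr3. All 10 were among the 23652 genes of the deposited expression table, and all 10 passed the minimum of a mean of 1 FPKM (reads divided by gene length and by the reads on all genes of the library), as did 10666 genes in all. RNA was sequenced from islets of mice aged 7 months in 2 genotypes, with 1 library each. The control library came from SRSF2 flox/flox mice, and the knockout library from SRSF2 flox/flox Ins2-Cre mice, so both carried the floxed alleles and only the second carried Cre. Ins2-Cre places the recombinase under an insulin promoter, which is active in beta cells, and the other islet cells keep the floxed gene. The floxed control carried no Cre, so effects of Cre and of Srsf2 loss cannot be told apart. How many mice gave each library is not given in the sources used here. With 1 library per genotype there was no replicate check and no test, and every difference below describes these 2 libraries.

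Islet receptors of this class read hormones, lipids, nucleotides and nerve transmitters and pass the signal to G proteins. Receptors coupled to Gs raise cyclic AMP, those coupled to Gq release calcium from stores through phospholipase C, and both kinds increase insulin secretion when glucose is high. Receptors coupled to Gi lower cyclic AMP and open potassium channels, and they restrain secretion. Incretins are gut hormones, chiefly glucagon-like peptide 1 (GLP-1) and glucose-dependent insulinotropic polypeptide (GIP), that are released after a meal and strengthen the insulin response.

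The targeted gene, Srsf2, had 2296 control reads and 1209 knockout reads, or 37.2 and 22.6 FPKM. Its ratio of knockout over control was 0.607 (95% counting interval 0.566 to 0.651), with gene-wide counts from all islet cells. The libraries held 17412828 and 15098659 reads on genes. The median gene was lower in the knockout library, with a ratio of 0.778, or -0.36 on the log2(FPKM + 0.5) scale. Relative to the median gene, the log2 difference of Srsf2 was -0.34. Genes of acinar cells, the exocrine cells around islets, took 1.85% of control reads and 16.0% of knockout reads, over 24 listed markers of which 22 of 23 measured ones were at least 2-fold higher. The insulin genes Ins1 and Ins2 took 19.5% and 17.8% of reads. These shifts stand beside every receptor value below, and their part in it was not tested.

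The receptor transcripts were lower in the knockout library in 9 of 10 cases, and 4 of the 10 were at least 2-fold lower: P2ry1, Glp1r, Gipr and Ffar1. For comparison, 6.32% of measured genes (674) passed the same 2-fold rule downwards and 1.57% (167) upwards, and 78.9% were lower by any amount, so a lower value alone was common. The receptors, like the further lists below, were chosen with earlier results of these data known. Such shares are therefore a description and not an independent comparison. None of the 10 receptors was 2-fold higher. Relative to the median gene, the same 4 receptors were at least 2-fold lower, where 1.36% of all measured genes were (145 genes, against 343 at least 2-fold higher, which is 3.22%). The median log2 difference of the 10 was -0.86, beside -0.36 for all measured genes. Together the receptors had 23021 control reads and 9522 knockout reads. In bulk islet RNA, fewer cells of a type and less RNA per cell cannot be told apart.

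**Figure D1:**
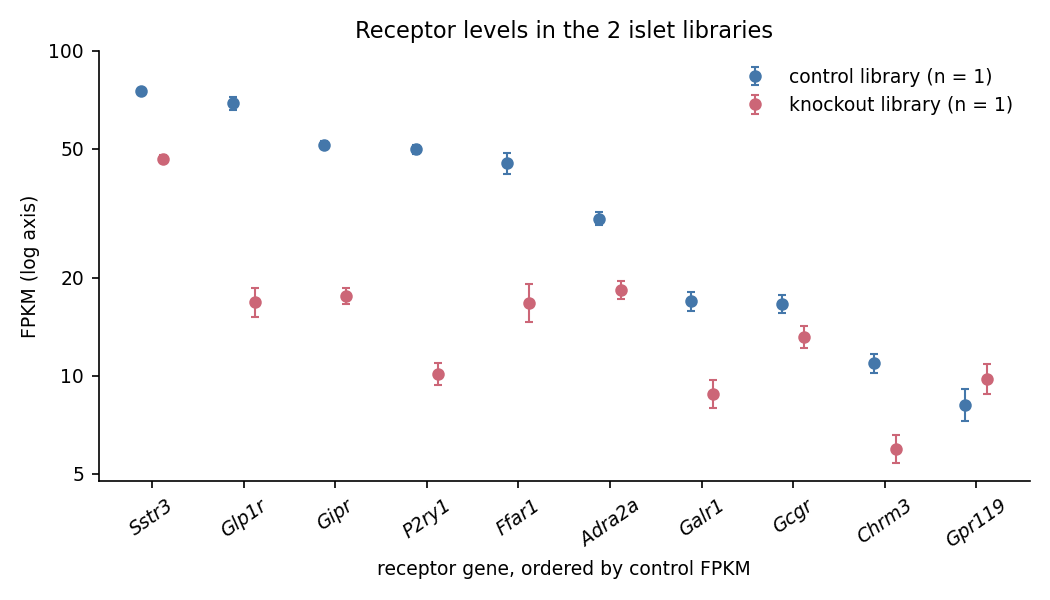
FPKM (log axis) of the 10 receptor genes in the control and the knockout library, 1 library each, ordered by the control value. Bars are 95% exact Poisson intervals and cover counting error only. The control points run from 75.2 FPKM for Sstr3 to 8.15 for Gpr119, and the knockout point is the lower one for every gene but Gpr119.

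Among the class B receptors of the glucagon family, those for the incretins were much lower and the one for glucagon was close to the median gene. Glp1r encodes the receptor for GLP-1, couples to Gs and is the target of GLP-1 drugs used in diabetes. The gene lies on the plus strand of chromosome 17 from 30901867 to 30936510 in the deposited GRCm38 coordinates. Its 1775 control reads and 376 knockout reads corresponded to 68.9 and 16.8 FPKM. The knockout value was well below the control value, with a ratio of 0.244 (0.218 to 0.273), and 17 of the 10666 measured genes (0.159%) had a lower difference. Gipr, the receptor for GIP, lies on the minus strand of chromosome 7 from 19156063 to 19170248. Its 4289 and 1274 reads gave 51.4 and 17.6 FPKM, again lower in the knockout library, with a ratio of 0.343 (0.322 to 0.365). Gcgr, the glucagon receptor on chromosome 11, had 912 and 626 reads, or 16.7 and 13.2 FPKM. Its ratio of 0.792 (0.714 to 0.877) was near the 0.778 of the median gene. The counting interval of Gcgr did not overlap those of Glp1r and Gipr. The sum of Glp1r and Gipr FPKM was 7.21 times the Gcgr value in the control and 2.61 times in the knockout library. Such a quotient within a library does not depend on how the libraries are scaled.

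Both lipid receptors of the set are used by beta cells, and they differed in direction. Ffar1, also called GPR40, binds long-chain fatty acids and couples to Gq. It lies on the minus strand of chromosome 7 from 30860568 to 30861470. With 708 control reads and 229 knockout reads it had 45.0 and 16.8 FPKM. The knockout value was the lower one, with a ratio of 0.373 (0.320 to 0.434). Gpr119 binds lipid amides such as oleoylethanolamide, couples to Gs and lies on the X chromosome from 48667979 to 48674478. Its 322 control reads and 336 knockout reads gave 8.15 and 9.81 FPKM. This was the one receptor with a higher value in the knockout library, at a ratio of 1.20 (1.03 to 1.41), and 89.6% of measured genes had a lower difference. Its relative difference from the median gene was 0.62 on the log2 scale, short of 2-fold. Ffar3, a receptor for short-chain fatty acids whose gene lies 4389 bases from Ffar1 on the same strand, had 6.96 and 6.81 FPKM.

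The Gq-coupled receptors for nucleotides and acetylcholine were both lower, by different amounts. P2ry1 encodes P2Y1, which responds to ADP and ATP, the latter being stored with insulin in granules and released with it. It lies on the plus strand of chromosome 3 from 61002785 to 61008982. Its control reads numbered 3375 and its knockout reads 597, or 49.7 and 10.1 FPKM. The ratio of 0.204 (0.187 to 0.223) was the lowest of the 10 receptors, with only 4 measured genes below it. Chrm3 encodes the muscarinic M3 receptor, through which acetylcholine from nerves increases insulin secretion. Its 867 and 411 reads gave 10.9 and 5.98 FPKM, lower in the knockout library at a ratio of 0.547 (0.485 to 0.616). The intervals of P2ry1 and Chrm3 did not overlap.

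The Gi-coupled receptors were lower by less than 2-fold. Adra2a, the alpha 2A adrenergic receptor through which noradrenaline inhibits insulin release, had 1974 and 1033 reads, or 30.4 and 18.4 FPKM (ratio 0.604, 0.559 to 0.651). Galr1, a receptor for the neuropeptide galanin, had 849 and 382 reads, or 17.0 and 8.81 FPKM (ratio 0.519, 0.459 to 0.586). Sstr3, a somatostatin receptor found on primary cilia, had 7950 and 4258 reads, or 75.2 and 46.4 FPKM (ratio 0.618, 0.595 to 0.641). All 3 were lower in the knockout library, and the counting interval of Galr1 overlapped that of Adra2a but not that of Sstr3. Relative to the median gene their log2 differences were -0.35, -0.55 and -0.33.

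**Figure D2:**
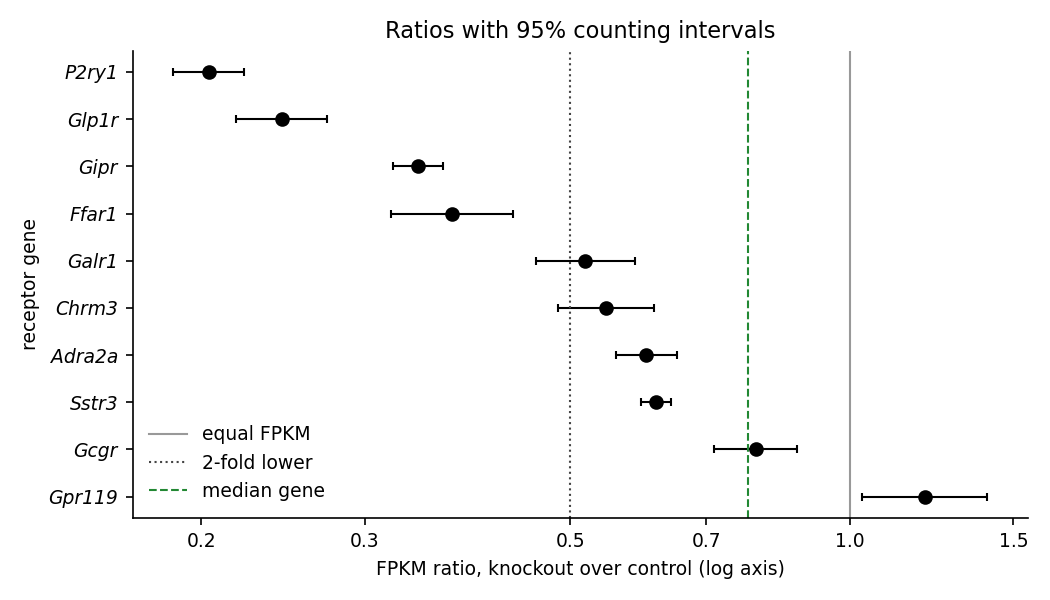
FPKM ratio of knockout over control (log axis) for each receptor gene, with 95% exact conditional binomial intervals that cover counting error only. P2ry1, Glp1r, Gipr and Ffar1 lie left of the 2-fold line with their whole intervals, Gcgr lies at the line of the median gene, and Gpr119 lies right of 1.

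The order of the receptor levels differed between the libraries. In the control, Sstr3 was followed by Glp1r, then by Gipr, P2ry1 and Ffar1, where neighbours in that order had overlapping counting intervals. Adra2a came next at 30.4 FPKM, then Galr1 and Gcgr with overlapping intervals, then Chrm3 and Gpr119. In the knockout library Sstr3 was again first, at 46.4 FPKM. Adra2a, Gipr, Glp1r and Ffar1 followed between 18.4 and 16.8 FPKM, each overlapping its neighbour. Gcgr stood at 13.2, and P2ry1, Gpr119 and Galr1 lay between 10.1 and 8.81 with overlapping neighbours. Chrm3 was last. Glp1r was 1.34 times Gipr in the control, and 0.956 times in the knockout library, where their intervals overlapped. The levels rest on the deposited gene lengths, which for some receptors depart from other annotation, as given below.

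Grouped by G protein, the summed FPKM of the Gs-coupled receptors was 145 in the control and 57.4 in the knockout library, a ratio of 0.396. The Gq-coupled sum was 106 and 32.9, a ratio of 0.311. The Gi-coupled sum was 123 and 73.6, a ratio of 0.600. Single ratios ran from 0.244 (Glp1r) to 1.20 (Gpr119) among Gs receptors and from 0.204 (P2ry1) to 0.547 (Chrm3) among Gq receptors. Among Gi receptors they ran from 0.519 (Galr1) to 0.618 (Sstr3). The groups thus overlapped, and the sums weigh most the receptors with the highest FPKM. The Gs and Gq receptors together made up 67.2% of the summed receptor FPKM in the control and 55.1% in the knockout library. Their sum was 2.04 times the Gi sum in the control and 1.23 times in the knockout library. With Sstr3, the highest of the 10, left out, the quotient was 5.29 and 3.32. Each of the 10 receptors was left out in turn, and the quotient was lower in the knockout library every time. All 4 receptors at least 2-fold lower (Glp1r, Gipr, Ffar1 and P2ry1) are in the Gs and Gq group. Leaving out 1 receptor at a time therefore cannot show whether the lower quotient goes beyond these 4, which was not tested.

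The promoters of 3 receptors are shown because they stand at the ends of the range: P2ry1 and Glp1r with the lowest ratios, and Gpr119 as the receptor that was not lower. Sequences are from RefSeq, assembly GRCm38.p6, and end at the base before the first transcript start of RefSeq and GENCODE M21. Capitals mark the GC box GGGCGG on either strand in P2ry1 and Glp1r, and TGACG, the start of the cyclic AMP response element, in Gpr119. The P2ry1 sequence is chr3:61002535-61002784 on the plus strand, that of Glp1r chr17:30901617-30901816 on the plus strand, and that of Gpr119 chrX:48674479-48674728 on the minus strand, each 5′ to 3′.
P2ry1: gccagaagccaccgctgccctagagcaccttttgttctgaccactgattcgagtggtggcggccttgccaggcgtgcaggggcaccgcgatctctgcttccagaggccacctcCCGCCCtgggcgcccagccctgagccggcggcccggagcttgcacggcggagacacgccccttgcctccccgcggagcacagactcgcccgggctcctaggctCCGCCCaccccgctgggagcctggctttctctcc
Glp1r: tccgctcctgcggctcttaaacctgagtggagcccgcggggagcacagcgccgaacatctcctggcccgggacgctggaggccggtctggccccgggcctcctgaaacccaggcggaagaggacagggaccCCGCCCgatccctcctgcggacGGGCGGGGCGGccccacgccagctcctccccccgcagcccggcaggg
Gpr119: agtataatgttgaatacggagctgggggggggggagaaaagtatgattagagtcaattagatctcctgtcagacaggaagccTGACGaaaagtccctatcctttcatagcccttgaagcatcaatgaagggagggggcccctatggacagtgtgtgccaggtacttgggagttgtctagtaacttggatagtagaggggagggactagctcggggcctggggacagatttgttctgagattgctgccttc
The P2ry1 window held 2 GC boxes and the Glp1r window 3, of which a pair overlaps by 1 base, and the Gpr119 window held 0. A GC box occurred in 32.7% of the 32851 RefSeq promoter windows of 250 bases and in 31.0% of those of 200 bases, the length used for Glp1r. TGACG occurred 1 time in Gpr119, as in 17.8% of windows of 250 bases. Of the other letters searched on both strands, the whole cyclic AMP response element TGACGTCA, the MAF core TGCTGAC, the E box CANNTG, the homeodomain core TAATTA, the forkhead core TGTTTAC, the TATA box TATAAA and the CCAAT box had 0 matches in these 3 windows. The GC content was 70.8% for P2ry1, 75.0% for Glp1r and 50.4% for Gpr119. Matches describe the letters only. Of the 10 receptors 8 matched a RefSeq promoter entry, all but Gipr and Galr1.

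Gene structure varied among the receptors. Srsf2 encodes a splicing factor, and 6 of the 10 receptors have their whole coding sequence in 1 exon of the principal GENCODE M21 transcript: Ffar1, Gpr119, P2ry1, Chrm3, Adra2a and Sstr3. Counting noncoding exons too, Ffar1 and Adra2a have 1 exon, P2ry1 and Gpr119 have 2, Sstr3 has 3 and Chrm3 has 5. A gene with 1 coding exon can therefore still have a spliced transcript. Glp1r, Gipr and Gcgr have 13 coding exons each and Galr1 has 3. The lowest ratios belonged to both kinds, P2ry1 with 1 coding exon and Glp1r with 13, and so did the highest, Gpr119 with 1 and Gcgr with 13. Over all measured genes with a coding transcript, the median log2 difference was -0.28 for the 548 genes with 1 coding exon and -0.37 for the 9934 with more. Gene-level counts do not show which exons were joined.

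SRSF2 protein is known to bind short exonic sequences of the form CCNG or GGNG. Counted together with the form CGNG and the form GCNG on the coding strand, overlaps included, these stood at 58.3 per kilobase of coding sequence in Chrm3, 60.8 in P2ry1, 63.7 in Gpr119 and 79.5 in Galr1. Glp1r had 83.5, Gcgr 88.7, Ffar1 88.9, Gipr 100 and Sstr3 103. Adra2a had the most at 167, and 1.08% of measured genes had more. The median measured gene had 76.4. P2ry1 and Gpr119, at the ends of the range of ratios, differed little in this density. Across all measured genes the Spearman correlation between density and log2 difference was 0.05, given as a description across genes, and the density followed GC content (correlation 0.93).

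The difference between the libraries also followed gene length (Spearman correlation -0.55 across the measured genes), so each receptor was set beside genes of its length. A running median over genes in order of length stood at -0.02 for the length of Glp1r, 1480 bases, and at 0.22 for Ffar1, 903 bases. It stood at -0.46 for P2ry1, 3899 bases, and -0.52 for Gipr, 4795 bases. With this trend removed, the log2 differences were -1.99 for Glp1r, -1.78 for P2ry1, -1.61 for Ffar1 and -1.0 for Gipr. At the deposited lengths these 4 were still at least 2-fold lower, with Gipr at the very limit of the rule. Of all measured genes 1.08% were 2-fold lower by this measure, against 2.03% past 2-fold in the other direction. Galr1 stood at -0.57, Adra2a at -0.31, Chrm3 at -0.30, Sstr3 at -0.14, Gcgr at 0.04 and Gpr119 at 0.47. The deposited lengths of Glp1r and Ffar1 are 25.5% and 21.6% of the exon length of 5811 and 4175 bases in GENCODE M21 (same build), while those of Gipr, Gcgr and Sstr3 exceed it. Reads outside the deposited gene model are not in these counts. At 4175 bases the running median stood at -0.48, against 0.22 at the deposited length of Ffar1. The trend-removed values of Glp1r and Ffar1 therefore depend on the deposited gene models. Ffar1 might not pass the 2-fold rule at the longer length, which was not run.

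**Figure D3:**
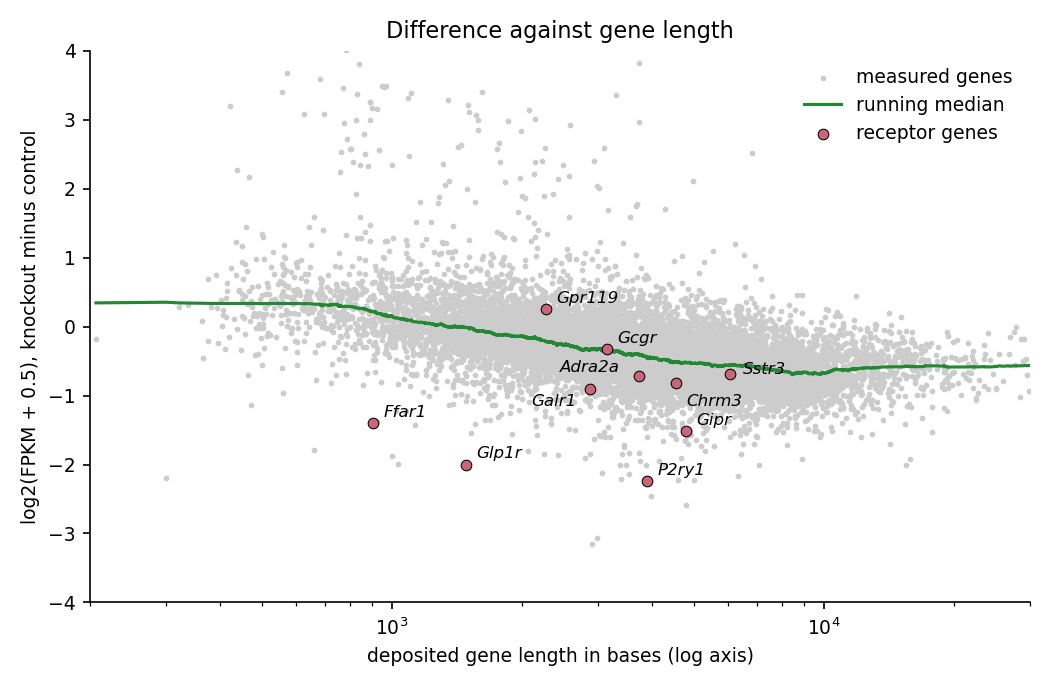
Difference in log2(FPKM + 0.5), knockout minus control, against deposited gene length (log axis) for the measured genes, of which 16 lie outside the axes. The line is the running median over genes in order of length. Glp1r, Ffar1 and P2ry1 lie well below genes of their deposited length, Gipr lies 1.0 below the line, and Gcgr lies on it.

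The authors' deposited table compared the same libraries with DESeq, after division of the reads by 1.23 for the control and 0.816 for the knockout. In the authors' deposited table P2ry1 had a log2 fold change of -1.91 and an adjusted p-value of 0.0393, on 2754 and 732 normalised counts. There, 82 of 16528 genes (0.496%) passed an adjusted p-value of 0.05, of which 10 (0.0605% of all) were lower, P2ry1 among them. The authors' deposited table gave Glp1r -1.65 with an adjusted p-value of 0.248, and Gipr -1.16 and Ffar1 -1.04 with adjusted values of 1. The other 6 receptors had log2 fold changes from -0.57 to 0.65 in the authors' deposited table. Such p-values from 1 library against 1 cannot hold the variation between mice.

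Beta cell markers were lower in part. Of the 10 beta cell markers, 3 were at least 2-fold lower, beside 6.32% of all measured genes. They were Slc2a2, the glucose transporter GLUT2 (277 and 98.8 FPKM), G6pc2, a glucose-6-phosphatase (1744 and 681), and Slc30a8, the granule zinc transporter (494 and 214). Only Slc2a2 was still 2-fold lower relative to the median gene, at -1.12 on the log2 scale, beside 1.36% of all measured genes. Of the 10 markers 8 were lower by any amount, beside 78.9% of all measured genes. The others, Ucn3 and Iapp, were higher, with ratios of 1.13 and 1.05. Slc2a2, G6pc2, Slc30a8 and Ucn3 are named after their values were seen. The median log2 difference of the 10 markers was -0.62, and their summed level was 380317 and 352131 FPKM. With that median set to 0, P2ry1 stood at -1.62, Glp1r at -1.38, Gipr at -0.90 and Ffar1 at -0.78, so that 2 receptors were at least 2-fold lower beside 53 of all measured genes. Summed markers of the remaining endocrine cell types were above their control values. The summed FPKM of 8 alpha cell markers was 20254 and 27416, that of 5 delta cell markers 4166 and 7160, and that of the PP cell hormones Ppy and Pyy 8757 and 21128. Lymphocyte markers stood at 30.0 and 79.7 summed FPKM over 6 genes, macrophage markers at 124 and 150 over 8, duct markers at 370 and 741 over 8, stromal markers at 12.9 and 10.2 over 8, endothelial markers at 178 and 154 over 8, and neural and Schwann markers at 60.7 and 49.9 over 7. The higher duct sum came with Tff2, at 38.4 and 495 FPKM, while Krt7 was lower, at 307 and 206. Of 6 measured duct markers, 2 were at least 2-fold higher and 2 were lower by any amount. The part of all these cell types in the receptor values was not tested.

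The further islet receptors had a median difference near that of all genes. Of 130 further receptor genes, 45 passed the minimum, and their median log2 difference was -0.33, close to the -0.36 of all measured genes. At least 2-fold lower were 2 of the 45 (4.44%, beside 6.32% of all measured genes), named after their values were seen. Vipr1, a class B receptor for vasoactive intestinal peptide, had 26.3 and 8.84 FPKM (ratio 0.336, 0.308 to 0.367), and the orphan receptor gene Gpr158 had 15.9 and 7.21 (ratio 0.452, 0.416 to 0.492). At least 2-fold higher on the log2(FPKM + 0.5) scale were 3, beside 1.57% of all measured genes. Cckar, a cholecystokinin receptor used by acinar cells in rodents, had 2.08 and 13.1 FPKM (ratio 6.29, 5.10 to 7.81). P2ry14, a receptor for UDP-glucose, had 37 and 136 reads (ratio 4.24), and Ptger3, a prostaglandin E receptor, had 24 and 82 (ratio 3.94). Relative to the median gene 6 of the 45 were past 2-fold upwards, Hcar1 among them (40 and 85 reads), and Vipr1 alone was past it downwards, beside 3.22% and 1.36% of all measured genes. The most abundant, Adgrg1 and Gpr142, had 30.0 and 21.7 and 24.4 and 18.6 FPKM. The higher receptors were measured in the library with more acinar and lymphocyte reads, and the part of those cells was not tested.

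The genes for galanin, somatostatin and the glucagon precursor, whose products are ligands of Galr1, of Sstr3 and of Gcgr and Glp1r, were higher in the knockout library. Sst and Gcg are also the delta and alpha cell hormones, whose marker lists are given above. Gal encodes galanin, the ligand of Galr1, and had 22 control reads and 159 knockout reads, or 1.60 and 13.4 FPKM. It was higher in the knockout library at a ratio of 8.34 (5.32 to 13.7), while Galr1 was lower at 0.519. Sst encodes somatostatin, the ligand of Sstr3, and stood at 4063 and 6967 FPKM (ratio 1.71, 1.70 to 1.73). Gcg, from which glucagon and GLP-1 are cut, stood at 18915 and 26029 FPKM (ratio 1.38, 1.37 to 1.38). Gip had 0 reads in both libraries, and a count of 0 among 15098659 reads allows up to about 3 reads by a 1-sided 95% limit. The 2-sided intervals used elsewhere would reach higher. The wider list also held hormones that are not ligands of the 10 receptors. Of these, Ppy and Pyy had ratios of 2.54 and 2.27, and Iapp, which encodes amylin, stood at 45156 and 47358 FPKM. Of 21 measured ligand and processing genes 0 were at least 2-fold lower, beside 6.32% of all measured genes. Gal, Ppy and Pyy were 2-fold higher or more, beside 1.57% of all measured genes. Of the 21, 12 were lower by any amount, beside 78.9% of all measured genes, and the median log2 difference was -0.23.

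G proteins carry the signal from the receptors into the cell. Of 21 measured G protein subunit genes, 2 (9.52%, beside 6.32% of all measured genes) were at least 2-fold lower: Gng12, a gamma subunit (140 and 54.4 FPKM, ratio 0.389), and Gna12, an alpha subunit (16.3 and 6.55, ratio 0.402). None was 2-fold higher, and relative to the median gene 0 were lower and Gng11 was higher. The most abundant alpha subunits were Gnai2, which mediates Gi signals (189 and 199 FPKM), and Gnas, which encodes Gs alpha (112 and 151 FPKM, ratio 1.36, 1.33 to 1.38). Gnas shares exons with other transcripts of its locus, so its count is uncertain.

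Of 28 measured receptor regulators, 3 (10.7%, beside 6.32% of all measured genes) were at least 2-fold lower and 0 higher. Their median of -0.39 was close to the -0.36 of all measured genes. They were genes of the RGS family, which speed the shut-off of G proteins. Rgs2 had 353 and 118 FPKM (ratio 0.335, 0.325 to 0.346) and Rgs16 had 56.5 and 20.9 (ratio 0.370, 0.340 to 0.402), and these 2 were 2-fold lower relative to the median gene, where 1.36% of all measured genes were. Rgs11, named after its values were seen, had 71.9 and 32.9 (ratio 0.457). Ramp1 and Ramp3, accessory proteins of class B receptors, had relative log2 differences of 1.25 and 0.92, on 225 and 404 and on 72 and 97 reads. The FPKM ratio of Ramp1 was 2.07, but its log2(FPKM + 0.5) difference of 0.88 fell short of the 2-fold rule. Atp6ap2 had 153 and 113 FPKM.

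In the cyclic AMP arm 2 of 25 measured genes (8.0%, beside 6.32% of all measured genes) were at least 2-fold lower, the anchoring protein gene Akap9 (3.62 and 1.37 FPKM) and the adenylyl cyclase gene Adcy6 (12.1 and 5.26). Pde10a, a phosphodiesterase gene, had 1.57 and 0.541 FPKM (ratio 0.345). Its log2(FPKM + 0.5) difference of -0.99 fell just short of the 2-fold rule. The abundant kinase subunit genes Prkar1a and Prkacb had ratios of 0.506 and 0.556. In the Gq arm 5 of 18 (27.8%) were at least 2-fold lower: Itpr3, a calcium release channel of the endoplasmic reticulum (ratio 0.387), the protein kinase C gene Prkca (0.434), the diacylglycerol kinase genes Dgkz (0.422) and Dgke (0.456, named after its values were seen), and the vesicle priming gene Unc13a (0.438). Prkcb had a ratio of 0.571, and the channel gene Trpm5 had 1.16. Relative to the median gene 0 of the 25 and 0 of the 18 were 2-fold lower, beside 1.36% of all measured genes. The median log2 difference was -0.56 for the cyclic AMP arm and -0.63 for the Gq arm, and -0.06 and 0.01 with the length trend removed, beside -0.44 for the 10 receptors.

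**Figure D4:**
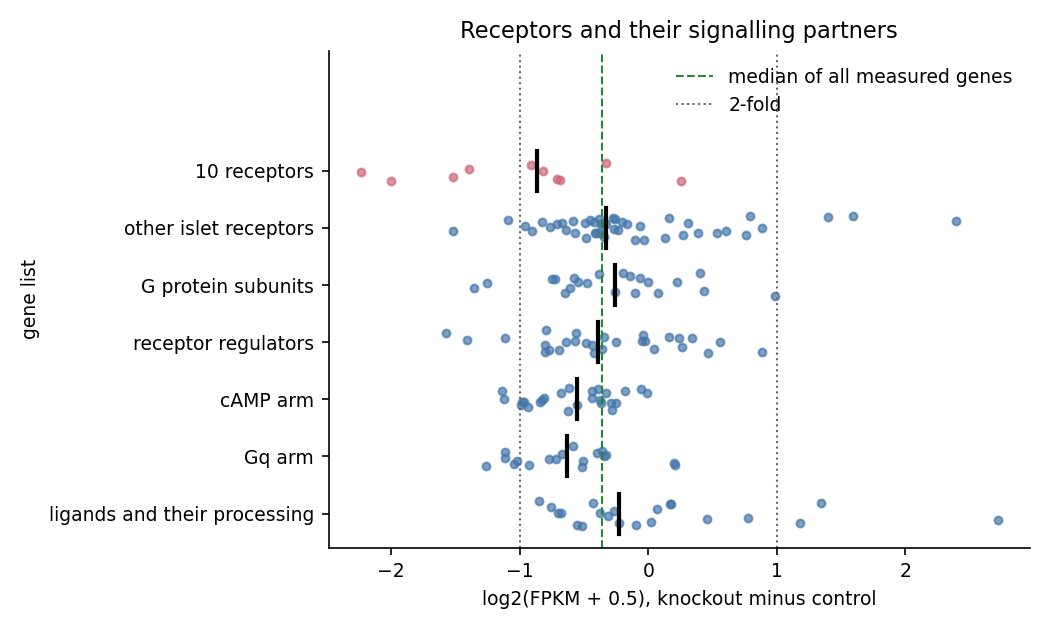
Difference in log2(FPKM + 0.5), knockout minus control, of the measured genes of each list, 1 point per gene, with the list's median as a black bar. The median of the 10 receptors is -0.86, that of the other islet receptors is -0.33, and the dashed line marks the -0.36 of all measured genes. Points are spread vertically for sight only. The lists were chosen with earlier results of these data known.

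The genes most like Glp1r in both level and difference over the 2 libraries were Il6ra, Gad1 and Sytl4. Likeness was the distance in mean log2(FPKM + 0.5) and in log2 difference, leaving out unnamed gene models. Il6ra, a subunit of the interleukin 6 receptor, had 69.5 and 17.0 FPKM at a distance of 0.01. Gad1, which makes the transmitter GABA, had 55.5 and 16.4 FPKM at 0.32. Sytl4, the granule docking protein granuphilin, had 64.5 and 20.2 FPKM at 0.36.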

How the data were processed

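RNA was measured in 2 islet libraries, 1 per genotype, and groups came from the labels. The authors deposited read counts per gene and FPKM values for both libraries, per the file headers. FPKM recomputed from reads, listed length and total reads on genes differed by at most 3.2e-10. The authors' deposited comparison holds normalised counts as a signal, their fold ratio, its log2 value, a p-value and an adjusted p-value. Bowtie2 2.4.2, DESeq and the builds mm10 and GRCm38 are named, per the submitters' processing notes. The counting tool, strand setting and annotation release were not given in the sources used here, and no receptor gene overlaps another listed gene.

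Differences are log2(FPKM + 0.5), knockout minus control, a scale that understates low genes, and were computed where mean FPKM reached 1. Ratios are of FPKM without the pseudocount, with exact (Clopper-Pearson) conditional binomial 95% intervals of the reads. Level intervals are exact Poisson. Without molecular identifiers reads can be copies of a molecule, so intervals cover counting error only. A 2-fold rule on the log2(FPKM + 0.5) scale stands in for a test. Python 3.11.15 and scipy 1.17.1 were used, and the calculations were tested on simulated data. Receptors and lists were chosen with earlier results of these data known. Named genes were the receptors, Srsf2, up to 4 measured genes per list farthest from the median gene and up to 2 most abundant, the most abundant markers, and the 3 genes nearest Glp1r; others are said to be named after their values were seen.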

Additional observations from a re-analysis of the deposited data

How the results depend on the processing

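The count of 4 receptors at least 2-fold lower was the same with pseudocounts of 0.1 and 1 FPKM, with each planned scaling, with no minimum and with a minimum mean of 5 FPKM. It was 8 under the 1.5-fold rule, where 29.6% of all measured genes were also lower. With the beta cell marker median set to 0, a setting chosen after seeing the data, it was 2, beside 0.497% of all measured genes. The count of receptors at least 2-fold higher was 0 under every alternative run. The median log2 difference of the 10, -0.86 as deposited, was -0.50 with the median gene set to 0, -0.66 without the 20 highest genes in the total, -0.65 without the acinar list in the total, -0.50 with the authors' normalised counts, -0.44 with the length trend removed and -0.25 with the beta cell marker median set to 0. Over 8 alternatives Glp1r ran from -2.03 to -1.38, P2ry1 from -2.28 to -1.62, Gipr from -1.54 to -0.90 and Ffar1 from -1.61 to -0.78, and Gpr119 was above 0 in all 8. Gcgr was below 0 in 4 of the 8 and above 0 in the other 4.

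Of all measured genes, 674 lower and 167 higher as deposited became 145 and 343 with the median gene set to 0, 335 and 258 without the 20 highest genes, 160 and 327 with the authors' normalised counts, 408 and 92 with a minimum mean of 5 FPKM, 3160 and 394 under the 1.5-fold rule and 53 and 734 with the beta cell marker median set to 0. The lower count was 287 without the acinar list and 115 with the length trend removed. No library could be left out with 1 per genotype. No paired analysis was possible because each group has 1 library. The fewest reads of any receptor were 229, for Ffar1 in the knockout library. Variation between mice was not measured.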
